A study of Mus musculus with 62 samples.

Results

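The genes described here encode the C/EBP family transcription factors Cebpa, Cebpb, Cebpd and Cebpg, the stress factors Ddit3 (also called CHOP), Atf4 and Atf5, and 3 genes known as ATF4 targets, Trib3, Chac1 and Asns. They were chosen by gene symbol, 10 of the 47643 genes listed, and all 10 were among the 13529 genes tested. Expression was measured by RNA sequencing of soleus, a hindlimb muscle rich in slow fibres, in female mice aged 2 months. Animals received cachectic melanoma cells (CAC), which bring on the tissue wasting called cachexia, non-cachectic melanoma cells (NCAC), or a mock injection (Con), and muscle was taken 2, 4, 6 and 8 weeks later. The 62 libraries fall into 12 groups of 5, or 7 for CAC at 8 weeks, and are called biological replicates in the labels. No genetic change is named for any group. The sample entries name C57BL6/J as the strain and the design text NCI Ath/nude, so the strain is unsettled here. The labels name melanoma cells, but the protocol text mentions LLC (Lewis lung carcinoma) cells. That disagreement about the cells is also unsettled, and the names of the labels are used. Values are TPM, the share of transcripts scaled to the same total in every library and corrected for length. This unit keeps no count of reads, and the sequencing depth is therefore unknown.

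C/EBP and ATF proteins are basic leucine zipper factors that bind DNA as pairs and can pair with one another. In the integrated stress response, kinases that sense amino acid shortage, unfolded protein, haem shortage or viral RNA phosphorylate the translation factor eIF2alpha. General translation then slows while Atf4 mRNA is translated more, so much of the control of ATF4 lies at the protein level, which mRNA values do not show. ATF4 induces Ddit3, Trib3, Chac1, Asns and amino acid transporters. Cebpb and Cebpd are induced by interleukin-6 type cytokines and glucocorticoids and drive acute phase genes, whereas Cebpa maintains the adipocyte, hepatocyte and myeloid states.

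The slow myosin gene Myh7, a defining marker of slow fibres, was at 3723 to 9048 TPM at weeks 2 to 6 and at 453 to 4671 TPM at week 8. The 8 markers fixed for the tissue, none at 0, summed to between 31080 and 100700 TPM, but this sum includes Acta1 and Ckm, which fast fibres also express. The 8-week libraries of every treatment stood apart from the earlier ones. The sum of 10 adipocyte markers was 742 to 3800 TPM at weeks 2 to 6 and 2821 to 21080 TPM at week 8. The sum of 10 macrophage markers was 63.5 to 362 TPM at weeks 2 to 6 and 411 to 3133 TPM at week 8. In whole muscle, fewer cells of a type and less RNA per cell cannot be told apart. The fast fibre gene Myh4 reached at least 500 TPM in 3 libraries, CAC replicate 4 at 2 weeks, NCAC replicate 3 at 6 weeks and CAC replicate 6 at 8 weeks, and member calls that changed without them are given both ways.

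Members were called at an adjusted p under 0.05 from limma, fitted on log2(TPM + 1) over all tested genes. At 2 weeks no member passed in CAC against Con, where limma called 0% of all genes (0 genes, with 1315 at an unadjusted p under 0.05). None passed in CAC against NCAC (0.503% of all genes called) or in NCAC against Con (0.00739% called). The counts at an unadjusted p under 0.05 were 0, 2 and 3 members in these comparisons. At 4 weeks no member passed in CAC against Con (1.03% of all genes called) or in NCAC against Con (0.00739% called), and 2 and 0 members had an unadjusted p under 0.05. In CAC against NCAC at 4 weeks 1 member, Atf4, passed (5.84% of all genes called). The 2 comparisons of the cachectic group at each week share the CAC libraries, so they are not independent of each other.

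At 6 weeks 4 of 10 members passed in CAC against Con, 3 higher and 1 lower, where 27.4% of all genes were called. In CAC against NCAC at 6 weeks 6 of 10 passed, 4 higher and 2 lower, against 32.6% of all genes. After median-of-ratios rescaling, which moved values by -0.191 and -0.198 on the log2 scale in these comparisons, the splits were 2 higher and 2 lower, and 3 higher and 2 lower. At 8 weeks 3 of 10 members passed in CAC against Con, 1 higher and 2 lower (10.6% of all genes called). In CAC against NCAC at 8 weeks 4 of 10 passed, 2 in each direction (21.9% of all genes called), or 1 higher and 2 lower after rescaling, which moved values by -0.213. No member passed in NCAC against Con at 6 weeks (0% of all genes called, 328 at an unadjusted p under 0.05) or at 8 weeks (0% called, 1205 at an unadjusted p under 0.05), and 1 and 0 members had an unadjusted p under 0.05. With only 10 members, these counts are given beside the background and are not read as particular to the group.

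**Figure D1:**
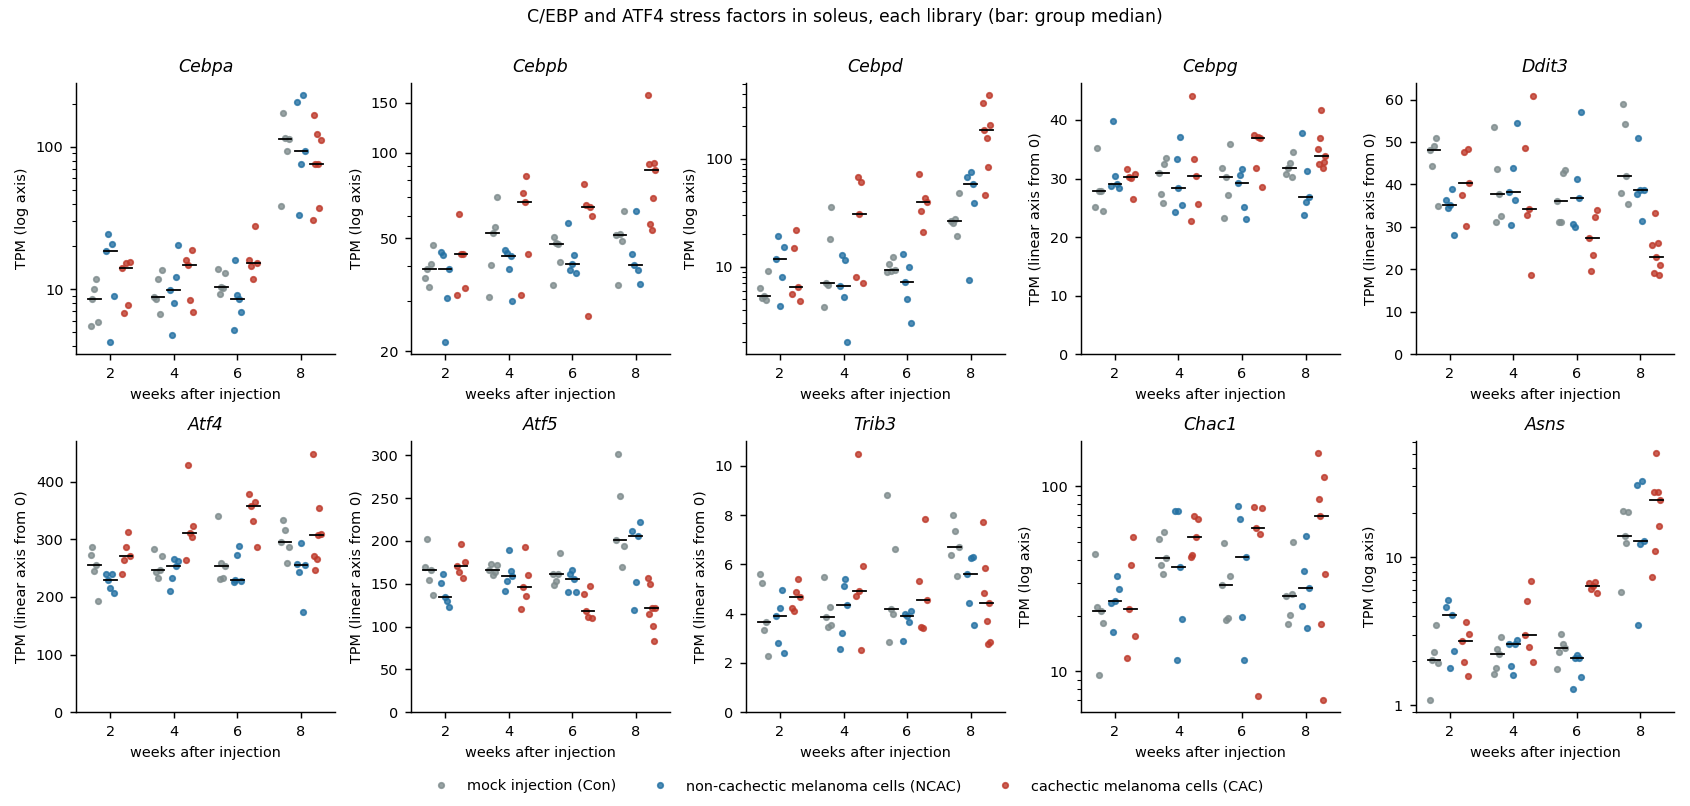
TPM of each member in every library by weeks after injection, coloured by treatment, with a bar at the group median. Axes are logarithmic, or linear from 0 for members that varied by less than 7-fold. Cebpd is higher in the cachectic group at 6 and 8 weeks while Ddit3 and Atf5 sit lower, and Cebpa and Asns have higher medians in all treatments at 8 weeks.

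Cebpd (mm10, chr16:15887286-15891031, plus strand), an acute phase regulator known for rapid induction by cytokines, had the widest range of group means, from 6.17 TPM in Con at 2 weeks to 200 TPM in CAC at 8 weeks. At 6 weeks the 5 CAC libraries held 72.5, 32.6, 20.8, 43.5 and 40.1 TPM. The Con libraries of that week held 8.88, 10.7, 9.06, 12.3 and 9.29 TPM, and the NCAC libraries 13.1, 7.20, 5.02, 9.86 and 2.97 TPM. Every CAC library was above every library of both other groups, a separation in either direction that 15.7% of all genes showed against Con and 13.9% against NCAC. The log2 fold change was 1.86 ± 0.31 (SE) against Con (3.62-fold, adjusted p = 0.000667 by limma) and 2.34 ± 0.31 against NCAC (5.05-fold, adjusted p = 6.64e-05), in 5 of 5 CAC libraries. At 8 weeks the CAC libraries ran from 46.3 to 392 TPM with a median of 185 TPM. Con libraries at 8 weeks held 26.4, 25.2, 27.6, 19.3 and 48.7 TPM, and NCAC libraries 67.8, 7.59, 74.9, 58.2 and 38.6 TPM. Only the lowest CAC library fell below the highest Con library, and 6 of 7 exceeded all NCAC libraries. The difference at 8 weeks was 2.50 ± 0.54 against Con (5.65-fold, adjusted p = 0.00919 by limma) and 2.03 ± 0.54 against NCAC (4.08-fold, adjusted p = 0.0150), with 7 of 7 CAC libraries above the mean log2 value of the other group in both. These 4 calls of Cebpd held without each library in turn.

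Cebpd was uneven within the cachectic group before that. At 4 weeks the CAC libraries held 8.02, 68.5, 31.1, 61.4 and 7.10 TPM, so 3 were at 31.1 TPM or more and 2 at 8.02 TPM or less. Con libraries held 4.26, 7.01, 6.69, 18.2 and 36.1 TPM, and the ranges overlapped. The difference from NCAC, whose libraries held 2.01 to 12.9 TPM, was 1.73 ± 0.68 and did not pass (adjusted p = 0.123 by limma). Without CAC replicate 5 it was 2.14 with an adjusted p of 0.0448. The macrophage marker sum was also higher in CAC at 6 weeks, at 217 to 273 TPM beside 129 to 157 TPM in Con, with 6 of 10 macrophage markers called higher. At 8 weeks the sums overlapped, at 982 to 2697 TPM in CAC and 1182 to 2310 TPM in Con, and 0 of 10 macrophage markers were called in CAC against Con. Within groups at 8 weeks, Cebpd deviated together with the macrophage sum (n = 17, Pearson r = 0.798, permutation p = 0.0025, Spearman rho = 0.61, permutation p = 0.018, r = 0.641 without the 2 farthest libraries, adjusted p = 0.017 over 40 relations). The same relation at weeks 2 to 6 did not pass (n = 45, r = 0.425, permutation p = 0.02, rho = 0.342, permutation p = 0.058, r = 0.3 without the 2 farthest, adjusted p = 0.089). Of the neutrophil markers, 4 of 8 were tested, and in CAC against Con 4 rose at 6 weeks and 1 at 8 weeks. Their sum over all 8 at 6 weeks was 14.0 to 29.9 TPM in CAC, 5.01 to 13.7 TPM in Con and 4.38 to 12 TPM in NCAC, where Ly6g and Ngp were listed at 0 in all libraries. The part of these cells in the Cebpd result was not tested.

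Cebpb (chr2:167688915-167690418, plus strand), the partner of Cebpd in acute phase control and in early adipocyte differentiation, passed only in CAC against NCAC at 8 weeks. CAC libraries of that week ran from 53.6 to 160 TPM with a median of 87.3 TPM. NCAC libraries held 44.2, 40.2, 62.5, 38.6 and 34.6 TPM, and Con libraries 51.5, 34.3, 51.6, 49.0 and 62.2 TPM. The ranges overlapped at their edges, with 5 of 7 CAC libraries above all libraries of both other groups. The log2 fold change was 0.91 ± 0.23 against NCAC (1.88-fold, adjusted p = 0.0117 by limma), or 0.70 with an adjusted p of 0.0889 after rescaling. Against Con it was 0.73 ± 0.23 and missed the threshold (adjusted p = 0.0508), which it passed without CAC replicate 3 (0.0252) or replicate 4 (0.0348). At 6 weeks CAC libraries held 77.6, 65.8, 26.5, 64.3 and 60.0 TPM, with replicate 3 below all Con (34.2 to 50.5 TPM) and NCAC (37.8 to 56.7 TPM) libraries. The 6-week difference from Con was 0.33 ± 0.22 (adjusted p = 0.258 by limma), and 0.59 without that library (adjusted p = 0.00540). Against NCAC it was 0.36 ± 0.22 (adjusted p = 0.206), and 0.62 without it (adjusted p = 0.00314).

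The cytokine input list held 9 genes, receptors and signal carriers known to act upstream of Cebpb and Cebpd, and the feedback gene Socs3. Of the 9, 7 rose and 0 fell in CAC against Con at 6 weeks (27.4% of all genes called). Their median log2 fold change was 0.81 beside 0.16 for all tested genes. Against NCAC 7 rose (32.6% called). After rescaling these counts were 5 higher, and 7 higher with 1 lower. Socs3, a feedback inhibitor induced by STAT3, went from 2.84 ± 0.685 TPM in Con to 29.0 ± 8.99 TPM in CAC (SD, n = 5 each), or 2.93 ± 0.21 (SE) higher as log2(TPM + 1), with an adjusted p of 9.3e-08 by limma. Osmr, the oncostatin M receptor, rose by 1.81 ± 0.10, Il1r1, the interleukin-1 receptor, by 1.50 ± 0.12 and Stat3 by 1.42 ± 0.12 on the log2 scale. At 8 weeks 5 of 9 rose against Con (median 0.95 beside 0.00 for all genes, 10.6% called) and 8 of 9 against NCAC (21.9% called). After rescaling these 8-week counts were 6 higher, and 5 higher with 1 lower. Some genes of this list passed at weeks when neither Cebpb nor Cebpd did. Stat3 was higher in CAC than in NCAC at 2 weeks (0.66 ± 0.12, adjusted p = 0.0415 by limma). That call was lost without CAC replicate 4, the library high in Myh4 (0.60, adjusted p = 0.119), or without NCAC replicate 1, 3, 4 or 5 (adjusted p 0.0637 to 0.101). At 4 weeks 4 of 9 rose against Con (1.03% of all genes called), among them Socs3 at 2.73 ± 0.23. Cebpb then differed from Con by 0.23 ± 0.25 and Cebpd by 1.09 ± 0.68 without passing. The 4-week calls of Osmr and Il1r1 were lost with no filter (adjusted p = 0.102 and 0.0794 by limma). They were also lost without CAC replicate 2 (0.0787 and 0.0812) or replicate 4 (0.116 and 0.0614).

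Acute phase genes known as C/EBP targets had the highest median of the 6 pathway lists at 6 and at 8 weeks. The lists were chosen with earlier results of these data known, so this rank is not read as a result. At 6 weeks 7 of 8 rose in CAC against Con (27.4% of all genes called), with a median log2 fold change of 1.68 beside 0.16 for all genes. Against NCAC 8 of 8 rose (32.6% called, median 1.74 beside 0.16 for all genes). Hp, which encodes the haemoglobin scavenger haptoglobin, went from 9.86 ± 3.29 TPM in Con to 442 ± 171 TPM in CAC, and Serpina3n, a protease inhibitor, from 8.40 ± 3.46 to 282 ± 155 TPM (SD, n = 5 each). C3, a complement component, rose by 2.60 ± 0.27 and Lcn2, an iron-trapping protein, by 2.54 ± 0.28 on the log2 scale. At 8 weeks 5 of 8 rose against Con (10.6% of all genes called) and 5 of 8 against NCAC (21.9% called). Hp went from 109 ± 49.8 TPM in Con (n = 5) to 2390 ± 2147 TPM in CAC (n = 7). This was an increase of 4.06 ± 0.64 on the log2 scale (adjusted p = 0.00170 by limma). Adipocytes and neutrophils also express several of these genes. The adipocyte sum was 2300 to 3800 TPM in CAC and 1422 to 1597 TPM in Con at 6 weeks, with 8 of 10 markers called higher, and their part in these rises was not tested. At 8 weeks 0 of 10 adipocyte markers were called between the treatments.

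**Figure D2:**
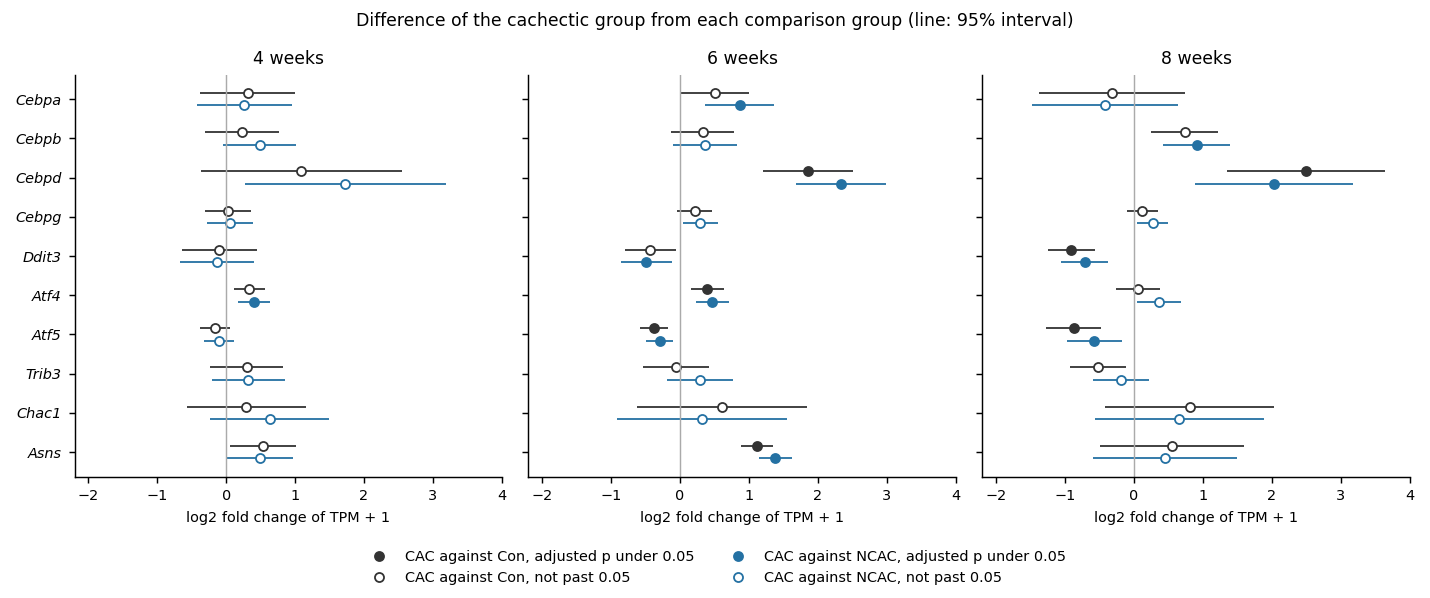
Log2 fold change of TPM + 1 for each member in CAC against Con (dark) and CAC against NCAC (blue) at 4, 6 and 8 weeks, with 95% intervals. Filled points had an adjusted p under 0.05. Cebpd lies right of 0 and Ddit3 and Atf5 left of 0 at 6 and 8 weeks, and Asns has filled points at 6 weeks only.

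Ddit3 (chr10:127290774-127296288, plus strand), a factor that pairs with C/EBP proteins and is known for its role in stress-induced cell death, was lower in the cachectic group. The GENCODE annotation lists a second overlapping locus under this symbol, and the single row of the table could hold reads of either. At 8 weeks CAC libraries ran from 18.6 to 33.3 TPM with a median of 22.9 TPM. Con libraries held 37.9, 59.0, 54.3, 42.0 and 35.4 TPM, so all 7 CAC libraries lay below all Con libraries, where 7.02% of all genes were separate in either direction. NCAC libraries held 37.7, 50.9, 38.6, 31.4 and 38.6 TPM, and 6 of 7 CAC libraries lay below all of them. Ddit3 fell by 0.91 ± 0.16 on the log2 scale against Con (1.88-fold lower, adjusted p = 0.00341 by limma) and fell by 0.71 ± 0.16 against NCAC (1.64-fold lower, adjusted p = 0.00665). Both calls held without each library in turn.

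At 6 weeks the Ddit3 call was less secure. CAC libraries held 27.4, 19.7, 23.3, 32.2 and 33.9 TPM, Con libraries 36.2, 31.1, 31.1, 42.8 and 43.5 TPM, and NCAC libraries 30.8, 29.9, 41.2, 36.7 and 57.0 TPM. The groups overlapped, and the difference was -0.43 ± 0.18 against Con (adjusted p = 0.0740 by limma) and -0.49 ± 0.18 against NCAC (adjusted p = 0.0419). The call against NCAC was lost without CAC replicate 1, 2 or 3 or NCAC replicate 3, 4 or 5 (adjusted p 0.0617 to 0.115). Of these, NCAC replicate 3 is the library high in Myh4 (-0.46 without it, adjusted p = 0.0723). It was also lost with all 62 libraries in 1 fit (adjusted p = 0.0580), and the difference from Con passed without CAC replicate 5 (0.0356). After rescaling both differences were larger, -0.62 (adjusted p = 0.0390) and -0.68 (adjusted p = 0.0206). At weeks 2 to 6, Ddit3 deviated within groups against the macrophage marker sum (n = 45, Pearson r = -0.604, permutation p = 0.00058, Spearman rho = -0.561, permutation p = 0.00074, r = -0.48 without the 2 farthest libraries, adjusted p = 0.0046). The same relation at 8 weeks did not pass (n = 17, r = -0.457, permutation p = 0.065, rho = -0.346, permutation p = 0.19, r = -0.367 without the 2 farthest, adjusted p = 0.22). The part of macrophages in the Ddit3 result was not tested.

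Atf5 (chr7:44812256-44816658, minus strand), an ATF4 relative that is known for inducing mitochondrial chaperones, was lower as well. At 6 weeks CAC libraries held 138, 118, 111, 147 and 110 TPM, and Con libraries 161, 149, 153, 162 and 186 TPM. No CAC library reached a Con library, where 15.7% of all genes were separate in either direction. Atf5 fell by 0.38 ± 0.09 on the log2 scale (1.30-fold lower, adjusted p = 0.00878 by limma). NCAC libraries of that week held 140, 162, 166, 156 and 141 TPM, so 1 CAC library lay above 2 of them. Against NCAC Atf5 fell by 0.30 ± 0.09 (adjusted p = 0.0241 by limma), a call lost without CAC replicate 2 (0.0520) or replicate 3 (0.0528). At 8 weeks CAC libraries ran from 83.0 to 157 TPM with a median of 122 TPM, below all Con libraries, which held 201, 302, 252, 170 and 194 TPM. In this comparison 7.02% of all genes were separate in either direction. Atf5 fell by 0.88 ± 0.19 against Con (1.84-fold lower, adjusted p = 0.00923 by limma). NCAC libraries held 212, 119, 152, 206 and 222 TPM, of which 2 lay within the CAC range. Against NCAC Atf5 fell by 0.57 ± 0.19 (1.49-fold lower, adjusted p = 0.0403), a call lost without CAC replicate 2, 4, 5, 6 or 7 or NCAC replicate 1, 4 or 5 (adjusted p 0.0547 to 0.0981). Replicate 6 of CAC is the library high in Myh4 (-0.49 without it, adjusted p = 0.0550). After rescaling all 4 of these falls of Atf5 passed, at -0.57 and -0.49 at 6 weeks and -0.92 and -0.79 at 8 weeks. With all 62 libraries in 1 fit the call against NCAC at 6 weeks was lost (adjusted p = 0.105). Of 6 tendon markers, none at 0, 3 were called lower in CAC against Con at 8 weeks and 2 against NCAC. Their sum at 8 weeks was 174 to 378 TPM in CAC, 209 to 641 TPM in Con and 133 to 572 TPM in NCAC, and their part in the Ddit3 and Atf5 results was not tested.

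Atf4 (chr15:80255184-80257541, plus strand), the central factor of the integrated stress response, was the most abundant member, with group means of 226 to 344 TPM. TPM is scaled by transcript length, so levels can be compared between genes, and the lowest group means were those of Asns and Trib3. At 6 weeks CAC libraries held 378, 359, 332, 364 and 287 TPM. Con libraries held 340, 231, 259, 232 and 254 TPM, and NCAC libraries 227, 229, 273, 288 and 228 TPM. Apart from 1 CAC library at 287 TPM and 1 Con library at 340 TPM the groups were separate. Atf4 rose by 0.39 ± 0.11 on the log2 scale against Con (1.31-fold, adjusted p = 0.0189 by limma) and by 0.47 ± 0.11 against NCAC (1.38-fold, adjusted p = 0.00633). Rescaling left 0.20 (adjusted p = 0.182) and 0.27 (adjusted p = 0.0727), so neither call held. The call against Con was also lost without CAC replicate 1 (0.0545), Con replicate 2 (0.0531) or Con replicate 4 (0.0501).

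The early call of Atf4 was fragile. At 4 weeks CAC libraries held 264, 429, 311, 305 and 323 TPM and NCAC libraries 210, 233, 266, 254 and 263 TPM, so 1 NCAC library was above the lowest CAC library. The difference was 0.40 ± 0.11 (1.32-fold, adjusted p = 0.0458 by limma), and 0.29 after rescaling (adjusted p = 0.0861). It was lost without CAC replicate 2, 3 or 4 or any of the 5 NCAC libraries (adjusted p 0.0527 to 0.105). At 8 weeks CAC libraries ran from 247 to 449 TPM with a median of 307 TPM, across the Con range of 260 to 333 TPM. The difference from Con was 0.06 ± 0.15 (95% interval -0.27 to 0.38, adjusted p = 0.860 by limma). NCAC libraries at 8 weeks held 256, 243, 294, 173 and 255 TPM, and the difference from them was 0.36 ± 0.15 (adjusted p = 0.0992). That difference passed with all 62 libraries in 1 fit (adjusted p = 0.0114) or with sample weights (adjusted p = 0.0133), and was 0.15 after rescaling (adjusted p = 0.607). Ppp1r15a, which encodes the stress-induced eIF2alpha phosphatase subunit, was the gene whose pattern was most like that of Atf4 (Pearson r = 0.841 over 62 libraries, log2(TPM + 1) with each week's mean removed, so that differences between treatments count). Ppp1r15a was 34.8 ± 10.6 TPM in CAC and 20.3 ± 7.21 TPM in NCAC at 6 weeks (SD, n = 5 each), higher by 0.76 ± 0.21 on the log2 scale (adjusted p = 0.0139 by limma).

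Among the genes known as ATF4 targets, the promoter letters are shown because Chac1, Trib3 and Asns hold the letters of the C/EBP-ATF response element, a composite site that ATF4 binds with a C/EBP partner, and of these only Asns passed between treatments. The motif searched was TGATGNAA on both strands, from 250 bases before to 50 after the RefSeq start, and 9 of the 10 members had an entry in the RefSeq promoter table (GRCm38.p6, the assembly of mm10). Of those 9, 3 held it, against 4.51% of the 27025 genes with an entry. These 3 are members known as ATF4 targets, so this share is not read as a result. The STAT motif TTCNNNGAA, which reads the same on both strands, was in 0 of the 9 members with an entry, beside 9.55% of the 27025 genes. No match therefore overlapped one of the first motif in these members. Cebpd was the member without an entry, so neither motif was searched for there. A match is a description of letters, and no binding was measured. The stretches read 5′ to 3′ on the strand of the gene, with the match in capitals (on the opposite strand for Chac1 and Trib3). That of Chac1 is chr2:119351003-119351102, plus strand, with the match 193 to 186 bases before the start. That of Trib3 is chr2:152344028-152344057, minus strand, with the match 14 to 21 bases after the RefSeq start and before the GENCODE start. That of Asns is chr6:7693214-7693243, minus strand, with the match 23 to 16 bases before the RefSeq start and inside the GENCODE gene.
Chac1: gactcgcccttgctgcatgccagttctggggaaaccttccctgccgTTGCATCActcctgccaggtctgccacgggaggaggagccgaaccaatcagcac
Trib3: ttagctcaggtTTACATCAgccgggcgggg
Asns: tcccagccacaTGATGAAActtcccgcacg

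Asns (chr6:7675169-7693254, minus strand), asparagine synthetase, had the smallest adjusted p of any member. At 6 weeks CAC libraries held 6.73, 6.08, 6.38, 6.85 and 5.73 TPM. Con libraries held 1.75, 2.28, 3.02, 2.58 and 2.44 TPM, and NCAC libraries 1.30, 2.10, 2.18, 2.10 and 1.55 TPM. Every CAC library was above every library of both other groups. A separation in either direction was seen for 15.7% of all genes against Con and 13.9% against NCAC. Asns rose by 1.12 ± 0.11 on the log2 scale against Con (2.17-fold, adjusted p = 5.21e-06 by limma) and by 1.38 ± 0.11 against NCAC (2.60-fold, adjusted p = 4.69e-07), and both calls held after rescaling (0.97 and 1.24) and without each library in turn. These folds are of TPM + 1, which understates changes of low genes. Mean TPM at 6 weeks was 6.352 in CAC, 2.415 in Con and 1.844 in NCAC. At 2 weeks the CAC libraries held 1.58 to 3.67 TPM and the Con libraries 1.09 to 3.48 TPM, a difference of 0.20 ± 0.24. The CAC effect at 6 weeks exceeded that at 2 weeks by 0.92 ± 0.24 (adjusted p = 0.0441 by limma), the 1 member called in that contrast beside 2.5% of all genes. This call was lost without 16 of 20 libraries in turn (adjusted p 0.0507 to 0.0844), all but CAC replicates 3 and 5 at 2 weeks, Con replicate 1 at 2 weeks and CAC replicate 5 at 6 weeks. Among the 16 is the CAC 2-week library high in Myh4 (0.81 without it, adjusted p = 0.0822).

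At 8 weeks no difference in Asns between treatments passed, and most libraries of every treatment were above those of earlier weeks. CAC libraries ran from 7.36 to 50.4 TPM with a median of 24.5 TPM, Con libraries held 5.78, 20.4, 13.9, 12.5 and 20.2 TPM, and NCAC libraries 30.8, 3.49, 12.3, 32.8 and 12.9 TPM. The difference from Con was 0.55 ± 0.50 (95% interval -0.49 to 1.59, adjusted p = 0.515 by limma). In the change of the CAC effect from 6 to 8 weeks 0 members passed, beside 0.192% of all genes, with 1 member, Atf5, at an unadjusted p under 0.05. Asns tracked the adipocyte markers within groups, at 8 weeks (n = 17, Pearson r = 0.929, permutation p = 1e-05, Spearman rho = 0.939, permutation p = 1e-05, r = 0.915 without the 2 farthest libraries) and at weeks 2 to 6 (n = 45, r = 0.893, permutation p = 1e-05, rho = 0.848, permutation p = 1e-05, r = 0.863 without the 2 farthest). Both had an adjusted p of 0.0001 over 40 relations, and 1e-05 is the smallest p these permutations can give. At 6 weeks the adipocyte sum had a median of 2576 TPM in CAC, 1456 TPM in Con and 1264 TPM in NCAC, and its part in the Asns rise was not tested.

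Cebpa (chr7:35119293-35121928, plus strand), the adipocyte and hepatocyte factor, followed the same markers. Its deviations within groups went with the adipocyte sum at 8 weeks (n = 17, Pearson r = 0.974, permutation p = 1e-05, Spearman rho = 0.951, permutation p = 1e-05, r = 0.97 without the 2 farthest libraries, adjusted p = 0.0001) and at weeks 2 to 6 (n = 45, r = 0.874, permutation p = 1e-05, rho = 0.89, permutation p = 1e-05, r = 0.881 without the 2 farthest, adjusted p = 0.0001). In the mock-injected group Cebpa was 14.0, 9.31, 10.4, 10.2 and 13.1 TPM at 6 weeks and 38.2, 173, 116, 94.0 and 114 TPM at 8 weeks. All 8-week libraries were above all 6-week ones, where 50.3% of all genes were separate in either direction. Cebpa rose by 2.98 ± 0.39 on the log2 scale (7.91-fold, adjusted p = 1.88e-06 by limma). In that contrast 9 of 10 adipocyte and 10 of 10 macrophage markers rose, beside 52.7% of all genes called. Between treatments Cebpa passed only in CAC against NCAC at 6 weeks, 16.1, 14.6, 11.8, 27.7 and 15.3 TPM against 5.15, 16.1, 9.19, 8.51 and 6.89 TPM. That difference was 0.86 ± 0.24 (1.82-fold, adjusted p = 0.0123 by limma), with 1 NCAC library inside the CAC range and 8 of 10 adipocyte markers called higher. The call was lost with all 62 libraries in 1 fit (adjusted p = 0.116). The genes most like Cebpa over the 62 libraries were Smoc1 (r = 0.955), Adipoq, the adipocyte hormone adiponectin (r = 0.946), and Slc7a10, an amino acid transporter of adipocytes (r = 0.938). For Asns they were Sfxn1, a mitochondrial serine carrier (r = 0.933), Hacd2, an enzyme of fatty acid elongation (r = 0.922), and Nadk, NAD kinase (r = 0.910).

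**Figure D3:**
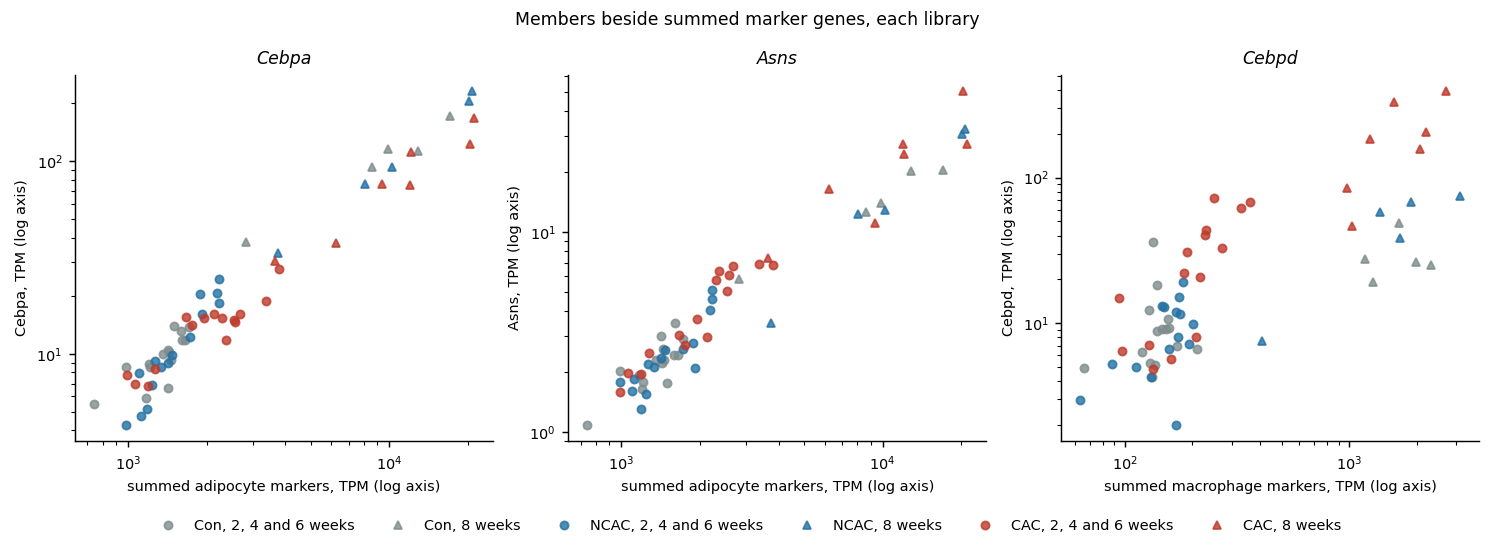
TPM of Cebpa and Asns against the summed TPM of 10 adipocyte markers, and of Cebpd against the summed TPM of 10 macrophage markers, 1 point per library on log axes, with triangles for 8 weeks. Cebpa and Asns rise with the adipocyte sum in every treatment, and at 8 weeks 6 of 7 CAC points for Cebpd lie above all Con points.

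The change from 6 to 8 weeks in the mock-injected animals touched other members too. Of 10 members 4 rose and 0 fell in Con at 8 against 6 weeks, beside 52.7% of all genes called, and after rescaling, which moved values by -0.367 on the log2 scale, 3 were higher and 1 lower. Asns rose by 2.09 ± 0.35 (4.25-fold, adjusted p = 4.09e-05 by limma) and Cebpd by 1.41 ± 0.42 (2.65-fold, adjusted p = 0.00779), with no overlap of the weeks in either, as for 50.3% of all genes. Atf5 rose by 0.44 ± 0.16 (adjusted p = 0.0262), but by 0.07 after rescaling (adjusted p = 0.655), and the call was lost without Con replicate 2 or 3 of either week (adjusted p 0.0530 to 0.0996). Cebpg went from 0.12 ± 0.11 to -0.24 after rescaling, where it passed as lower (adjusted p = 0.0216).

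Chac1 and Trib3, the other members listed as ATF4 targets, did not pass in any comparison. Ddit3, also induced by ATF4, passed as lower in the comparisons given above. Chac1 (chr2:119351229-119354381, plus strand), an enzyme that degrades glutathione, ranged widely within groups. At 8 weeks CAC libraries held 151, 85.1, 68.8, 17.9, 7.01, 112 and 33.4 TPM, with both the highest and the lowest library of the series among them. Con libraries held 25.4, 18.0, 20.1, 26.1 and 49.99 TPM, and the difference was 0.81 ± 0.58 (95% interval -0.42 to 2.03, adjusted p = 0.404 by limma). At 6 weeks 1 CAC library held 7.37 TPM and the other 4 from 54.9 to 77.2 TPM. The genes most like Chac1 were Klhl38 (r = 0.773), Pik3ip1, an inhibitor of PI3 kinase (r = 0.772), and Gadd45a, a stress-induced growth arrest gene (r = 0.720).

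Trib3 (chr2:152337422-152344032, minus strand), a pseudokinase that restrains AKT and ATF4, was low throughout at 2.28 to 10.5 TPM. At 8 weeks CAC libraries ran from 2.78 to 7.72 TPM with a median of 4.45 TPM, and Con libraries held 6.37, 8.01, 7.37, 5.54 and 6.70 TPM. The difference was -0.53 ± 0.19 (adjusted p = 0.0856 by limma), and -0.64 without CAC replicate 1 (adjusted p = 0.0323). NCAC libraries of that week held 3.52 to 6.30 TPM. At 6 weeks the difference from Con was -0.06 ± 0.23 (95% interval -0.53 to 0.42). The gene most like Trib3 was Arhgef2, a guanine nucleotide exchange factor for RHOA (r = 0.847), followed by Mtss1l at 0.642.

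Cebpg (chr7:35046422-35056573, minus strand), which lacks a strong activation domain and pairs with other C/EBP and ATF proteins, was the steadiest member, with group means of 28.0 to 34.9 TPM. At 6 weeks CAC libraries held 37.5, 31.8, 37.1, 37.0 and 28.6 TPM and NCAC libraries 29.2, 30.7, 31.7, 25.1 and 23.1 TPM, a difference of 0.29 ± 0.12 (adjusted p = 0.0695 by limma). It passed without CAC replicate 5 (0.0275) or NCAC replicate 3 (0.0487), the latter a library high in Myh4. At 8 weeks the difference from NCAC was 0.27 ± 0.11 (adjusted p = 0.0791), and 0.36 without NCAC replicate 1 (adjusted p = 0.0164). Rescaling left 0.10 at 6 weeks and 0.06 at 8 weeks.

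Of 24 amino acid and redox genes known as ATF4 targets, 21 were tested (not Slc7a11, Gdf15 and Fgf21), and 7 rose and 0 fell in CAC against Con at 6 weeks (27.4% of all genes called), or 6 and 3 after rescaling. The median was 0.26 beside 0.16 for all genes, and a share this near the background is not read as a result about the list. Slc3a2, the shared chain of amino acid transporters, went from 15.7 ± 1.39 to 39.6 ± 7.74 TPM (SD, n = 5 each), a rise of 1.27 ± 0.11 on the log2 scale (adjusted p = 8.6e-07 by limma). Eif4ebp1, an inhibitor of cap-dependent translation, rose from 99.95 ± 9.66 to 216 ± 75.3 TPM, by 1.03 ± 0.18. Psat1, of serine synthesis, rose by 0.85 ± 0.19 and Slc38a2, a neutral amino acid transporter, by 1.03 ± 0.23. Against NCAC at 6 weeks 9 rose and 1 fell (32.6% of all genes called), or 7 and 3 after rescaling.

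In CAC against Con at 8 weeks 3 of these 21 genes rose and 2 fell (median -0.02 beside 0.00 for all genes, 10.6% called). Ddit4, an mTORC1 inhibitor also induced by glucocorticoids, rose by 3.00 ± 0.51 (adjusted p = 0.00276 by limma) and Cth, which makes cysteine, by 0.91 ± 0.19. Mthfd2 fell by 0.77 ± 0.19, from 5.54 ± 1.38 TPM in Con (n = 5) to 2.90 ± 1.10 TPM in CAC (SD, n = 7), and Pycr1, of proline synthesis, fell by 0.71 ± 0.20. Leaving out Con replicate 2 ended the Mthfd2 call (adjusted p = 0.0511), and the Pycr1 call was lost without CAC replicate 1 or 2 or Con replicate 1, 2 or 5 (0.0522 to 0.0797). Against NCAC 6 rose and 0 fell (21.9% of all genes called), or 3 and 2 after rescaling. Ddit4 was also the third gene most like Cebpd in pattern (r = 0.911 over 62 libraries), after Slc10a6, a transporter of sulphated steroids (r = 0.931), and AI607873 (r = 0.912).

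Of 12 tested genes around the eIF2alpha kinases 5 rose in CAC against Con at 6 weeks (27.4% of all genes called, median 0.28 beside 0.16 for all genes). This count was 1 after rescaling, 3 without the library high in Myh4, and 1 to 11 when 1 library was left out. Gcn1l1, the activator of the amino acid sensor kinase, rose by 0.49 ± 0.12 (adjusted p = 0.0100 by limma) and Eif2ak1, the haem-sensing kinase, by 0.33 ± 0.09, a call lost without CAC replicate 1 (0.27, adjusted p = 0.0590) or after rescaling (0.15, adjusted p = 0.102). At 8 weeks 2 rose against Con (10.6% of all genes called) and 7 against NCAC (21.9% called), or 0 and 2 after rescaling. The list of 18 endoplasmic reticulum genes held chaperones of the other unfolded protein response branches and their regulators, among them Xbp1, Atf6 and Ern1. It gave 6 rises against Con at 6 weeks (27.4% of all genes called, median 0.27 beside 0.16 for all genes). This count was 2 after rescaling and 3 to 10 without 1 library. Ero1l, an oxidase for protein folding, rose by 0.39 ± 0.09 and Dnajc3, a co-chaperone, by 0.46 ± 0.11. At 8 weeks 2 of the 18 rose against Con (10.6% of all genes called), or 1 without the library high in Myh4, among them Dnajb9, a co-chaperone induced by XBP1, by 0.78 ± 0.14 (adjusted p = 0.00385).

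Other basic leucine zipper genes were led by Nfil3, a repressor of the circadian and immune programs, which went from 20.3 ± 6.68 TPM in Con to 83.9 ± 36.8 TPM in CAC at 6 weeks (SD, n = 5 each). It rose by 1.94 ± 0.29 on the log2 scale (adjusted p = 0.000246 by limma), and by 2.41 ± 0.44 at 8 weeks (adjusted p = 0.00418). Against NCAC at 6 weeks Dbp, the clock-output factor that binds the same sites as Nfil3, fell by 1.78 ± 0.44, from 158 ± 26.0 to 57.2 ± 33.3 TPM. Of the 18 tested genes of this list 6 rose and 1 fell against Con at 6 weeks (27.4% of all genes called), or 2 and 1 after rescaling.

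**Figure D4:**
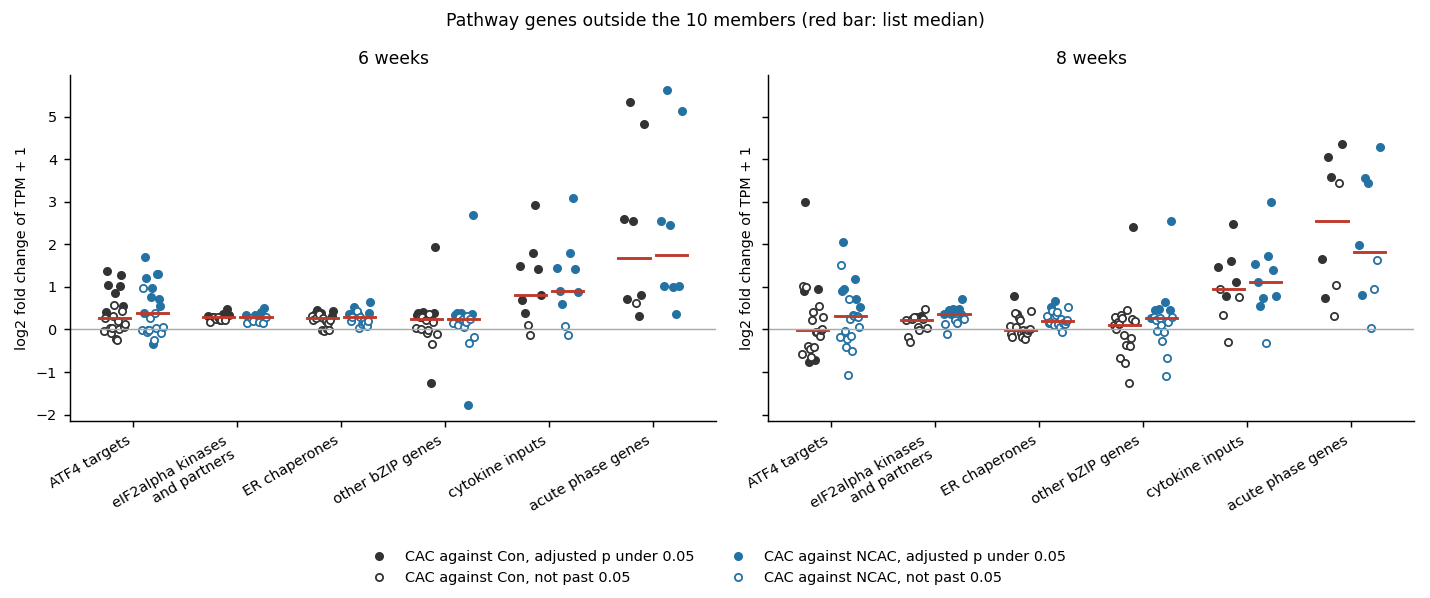
Log2 fold change of TPM + 1 of each tested gene of 6 pathway lists, in CAC against Con (dark) and CAC against NCAC (blue) at 6 and 8 weeks, with filled points at an adjusted p under 0.05 and a red bar at the list median. The acute phase and cytokine input lists have medians of 1.68 and 0.81 against Con at 6 weeks, and the ATF4 target list a median of 0.26.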

How the data were processed

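Per the labels' protocols, soleus mRNA was made into strand-preserving libraries. Per the submitters' processing notes the build was mm10, with aligner and quantifier not given in the sources used here. The authors deposited 1 table of TPM values for 62 libraries, all with the same total. Genes with at least 1 TPM in at least 5 libraries were kept (13529 of 47643), and log2(TPM + 1) was fitted with limma 3.58.1 (R 4.3.3, trended variance) on the 3 groups of a week, or on CAC and Con of 2 weeks, with Benjamini-Hochberg adjustment over all tested genes. Fold changes are on this log2(TPM + 1) scale, which understates those of low genes. The method was also run on simulated data with known changes. Genes were drawn independently there, unlike in these libraries, so that run does not measure false calls here. No 2 libraries were identical.

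The members and lists were chosen with earlier results of these data known. All members are named. From each list up to 4 genes with the smallest adjusted p in a comparison are named, and for each member up to 3 genes with the highest Pearson r over 62 libraries, among genes with a group mean of at least 5 TPM. Marker relations used deviations from group means and 100000 permutations. Alternatives were a pseudocount of 0.1, no filter, median-of-ratios rescaling, all libraries in 1 fit, the compared groups only, a replicate block, sample weights, leaving out each library, and, chosen after seeing the data, leaving out libraries with at least 500 TPM of Myh4. Gene positions are from GENCODE on mm10, and promoter sequences from RefSeq.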

Additional observations from a re-analysis of the deposited data

Results flagged for a closer look

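Of 120 groups of member values examined, 6 held a library far from the others of its group, and chance gives about 1 in 20. Cebpa was 27.7 TPM in CAC replicate 4 at 6 weeks, where the others held 11.8 to 16.1 TPM. Cebpb was 160 TPM in CAC replicate 1 at 8 weeks, beside 53.6 to 92.3 TPM. The mock-injected replicate 5 at 8 weeks stood out in both Cebpd, at 48.7 TPM beside 19.3 to 27.6 TPM, and Chac1, at 49.99 TPM beside 18.0 to 26.1 TPM. Cebpg was 39.8 TPM in NCAC replicate 2 at 2 weeks, beside 28.4 to 30.5 TPM. Atf4 was 340 TPM in Con replicate 1 at 6 weeks, beside 231 to 259 TPM. The effect of the cachectic cells on Asns differed between weeks, larger at 6 than at 2 weeks by 0.92 on the log2 scale (adjusted p = 0.0441 by limma).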

How the results depend on the processing

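The single call in CAC against NCAC at 4 weeks became 0 with no filter, rescaling, all libraries in 1 fit, the compared groups only, the replicate block or sample weights, and ran from 0 to 2 when 1 library was left out. The single call in the change of the CAC effect from 2 to 6 weeks became 0 with a pseudocount of 0.1, no filter, all libraries in 1 fit, the replicate block or without the libraries high in Myh4, and ran from 0 to 2 without 1 library. Under rescaling that contrast called Atf5 instead (-0.55, adjusted p = 0.0187 by limma). The 6 calls in CAC against NCAC at 6 weeks became 3 with all libraries in 1 fit, and the 4 in CAC against Con became 5, with Ddit3, under the replicate block or sample weights. Leaving out 1 library gave 4 to 7 and 3 to 5 calls there, 3 to 4 in both 8-week comparisons of CAC, and 3 to 4 in Con at 8 against 6 weeks. At 8 weeks sample weights called 5 members in CAC against Con and 1, Atf4, in NCAC against Con (-0.46, adjusted p = 0.0305 by limma).

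Replicate numbers did not pair the libraries: same-numbered deviations correlated between -0.666 and 0.477, and no comparison had every pair over 0.1. With the replicate block, which leaves CAC replicates 6 and 7 without a partner at 8 weeks, the 3 calls in CAC against Con at 8 weeks became 1 and the 4 in CAC against NCAC became 2. Cebpd was then 2.18 (adjusted p = 0.0564) and 1.71 (adjusted p = 0.0610 by limma), and Atf5 -0.78 (adjusted p = 0.0635) and -0.48 (adjusted p = 0.147).

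In Con at 8 against 6 weeks rescaling turned Cebpg to -0.24 and Eif2s1 to -0.0052, and also Cebpb to -0.21, Ddit3 to -0.07 and Atf4 to -0.18, which passed neither way, and the cause was not tested. TPM hold no read depth, so the counting error of low members such as Asns and Trib3 is unknown.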

Other observations

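In the mock-injected animals, the pathway lists were also compared between 8 and 6 weeks, where 52.7% of all tested genes were called with a median log2 fold change of 0.29. The lists' counts below are not read as particular to them, and those of the ATF4 targets, the genes around eIF2alpha and the acute phase genes lie below that share. Of 18 endoplasmic reticulum chaperones and their regulators 12 rose and 0 fell, or 9 and 3 after rescaling. Edem1, which directs misfolded proteins to degradation, went from 4.22 ± 0.607 TPM at 6 weeks to 11.4 ± 2.85 TPM at 8 weeks (SD, n = 5 each), a rise of 1.24 ± 0.14 on the log2 scale (SE, adjusted p = 1.79e-07 by limma). Pdia4, a disulphide isomerase, rose by 1.34 ± 0.19 and Sdf2l1, a chaperone cofactor, by 1.39 ± 0.19. Of 21 tested ATF4 targets 6 rose and 0 fell, or 5 and 5 after rescaling, led by Nupr1, a stress-induced chromatin protein, from 11.9 ± 2.09 to 41.9 ± 11.6 TPM. Of 12 tested genes around eIF2alpha 4 rose and 0 fell, or 3 and 7 after rescaling, with Eif2ak3, the kinase that senses unfolded protein, higher by 1.06 ± 0.14.

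Of 8 acute phase genes 4 rose and 0 fell between these weeks, with or without rescaling. C3 went from 18.1 ± 6.48 to 226 ± 83.8 TPM and Hp from 9.86 ± 3.29 to 109 ± 49.8 TPM. In the same contrast 9 of 10 adipocyte markers and 10 of 10 macrophage markers rose, and their part in these differences was not tested. No other label separates the 8-week libraries from the earlier ones here, so time and any difference in handling between the weeks cannot be told apart.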
